A study of Homo sapiens with 12 samples.

Results

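hsa-miR-551b-3p is 1 of the 372 miRNAs measured on miScript miRNA PCR Arrays of OCI-My5 cells, a human multiple myeloma line. It was chosen by its measured values, since its steady-state level differed more between the un-treated lines than that of any other miRNA on the array, and it was higher in My5.LV cells given AGO2 cDNA or lenalidomide. Its levels are therefore given as a description, and no test was made on them. There were 12 arrays, 1 for each of 12 conditions, so no difference has a replicate check, and with so few arrays each value is only as precise as the single well it comes from. My5.LV cells carry the empty lentivirus vector and have a low level of cereblon (CRBN). My5.CRBN cells were infected with lentivirus that carries a His-tagged CRBN cDNA. Each line was measured un-treated, infected with lentivirus for the AGO2 shRNA sh72 (My5.LV.sh72 and My5.CRBN.sh72), and infected with lentivirus for a tagged AGO2 cDNA (My5.LV.AGO2 and My5.CRBN.AGO2). Each line was also measured after 10 μM lenalidomide for 72 h (Len72) or 120 h (Len120), and with AGO2 cDNA and 10 μM lenalidomide for 72 h together (AGO2+Len72). The labels name AGO2 by its older symbol, EIF2C2. The un-treated arrays served as reference. None of the 12 arrays is labelled as a control given the empty vector of the shRNA or AGO2 cDNA, or solvent alone. Infection or solvent therefore cannot be told apart from the treatment. AGO2 has no assay on these arrays, so neither the silencing nor the over-expression of AGO2 could be checked on them.

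A miRNA is cut out of a hairpin transcript, and 1 arm of the hairpin is loaded into an argonaute protein such as AGO2. The loaded strand finds its target mRNAs mainly through its seed, the bases near its 5′ end, and the complex lowers the stability or translation of those mRNAs. Argonaute also shields the bound miRNA from decay. CRBN is the substrate receptor of an E3 ubiquitin ligase and the protein to which lenalidomide binds. miR-551b has been studied in ovarian cancer, where the chromosome region that holds its gene is often amplified, and in acute myeloid leukaemia.

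The sequence of the assayed strand is shown first, with the other arm of its hairpin and the miRNA that has the same seed. The capitals mark the seed, bases 2 to 8 counted from the 5′ end, and the sequences are those of RefSeq (GRCh38.p14).
hsa-miR-551b-3p: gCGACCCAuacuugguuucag
hsa-miR-551b-5p: gAAAUCAAgcgugggugagacc
hsa-miR-551a: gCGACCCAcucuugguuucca

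hsa-miR-551b-3p has 21 bases and lies on the plus strand at chr3:168551914-168551934. Its hairpin gene, MIR551B, spans 96 bases at chr3:168551854-168551949, within the span of EGFEM1P (chr3:168249522-168830599), a transcribed pseudogene. The table that was used gives gene spans and does not say whether the hairpin is in an exon or an intron of EGFEM1P. No other miRNA gene lies within 50 kb, and the nearest one that has an assay on the array, MIR16-2, is 8147029 bases away. Of the mature miRNAs in the table, 2 have the seed of hsa-miR-551b-3p. The other one, hsa-miR-551a, comes from chromosome 1 and is identical at 17 of 21 bases. It differs from hsa-miR-551b-3p by U9C, A10U, A20C and G21A, counted from the 5′ end with the base of hsa-miR-551b-3p given first. Neither hsa-miR-551a nor hsa-miR-551b-5p has an assay here, so the values below are those of 1 strand of 1 hairpin. How far the assay also reads hsa-miR-551a was not tested.

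The Ct, the PCR cycle at which a well passes the fluorescence threshold, is lower where there is more template. hsa-miR-551b-3p was under the Ct cap of 35 on all 12 arrays, with a Ct from 26.3 to 32.8. From 324 to 367 of the 372 miRNAs were under the cap on an array, and the 6 control wells for small RNAs (5 SNORD wells and RNU6-2) had a mean Ct from 18.7 to 21.9. The level used here is that mean minus the Ct of hsa-miR-551b-3p, on a log2 scale that takes each cycle as a doubling, so that a higher (less negative) level means more of the miRNA. The haematopoietic miRNAs were detected in these cells. miR-142-3p had a Ct from 12.4 to 18.6, miR-142-5p from 19.1 to 23.4 and miR-150-5p from 19.3 to 21.9, and miR-155-5p was under the cap on 11 arrays.

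The level of hsa-miR-551b-3p was lowest in un-treated My5.LV cells, at -11.98 (Ct 32.1). The next array in the order was My5.LV.sh72, at -11.82 (Ct 32.8). These 2 arrays stood apart from the rest, and the other 10 lay between -9.97 and -6.92.

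In My5.LV cells the levels after lenalidomide were -9.97 at 72 h (Ct 30.3) and -9.49 at 120 h (Ct 29.1). My5.LV.AGO2 cells had a level of -8.96 (Ct 30.1). The highest My5.LV array was that of AGO2 cDNA with lenalidomide, at -8.50 (Ct 27.2). All 4 were thus above both the un-treated and the AGO2-sh72 array of the same line.

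In My5.CRBN cells the un-treated level was -8.01 (Ct 28.8), which is above all 6 My5.LV arrays. The lowest levels of this line were -9.62 after 72 h of lenalidomide (Ct 28.7) and -9.40 with AGO2-sh72 (Ct 29.8). AGO2 cDNA with lenalidomide gave -8.56 (Ct 28.9). The line's un-treated array therefore lay in the upper part of its range, whereas un-treated My5.LV was at the bottom of its own. After 120 h of lenalidomide the level was -7.65 (Ct 26.3), and in My5.CRBN.AGO2 cells it was -6.92 (Ct 28.8), the highest of the 12.

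**Figure D1:**
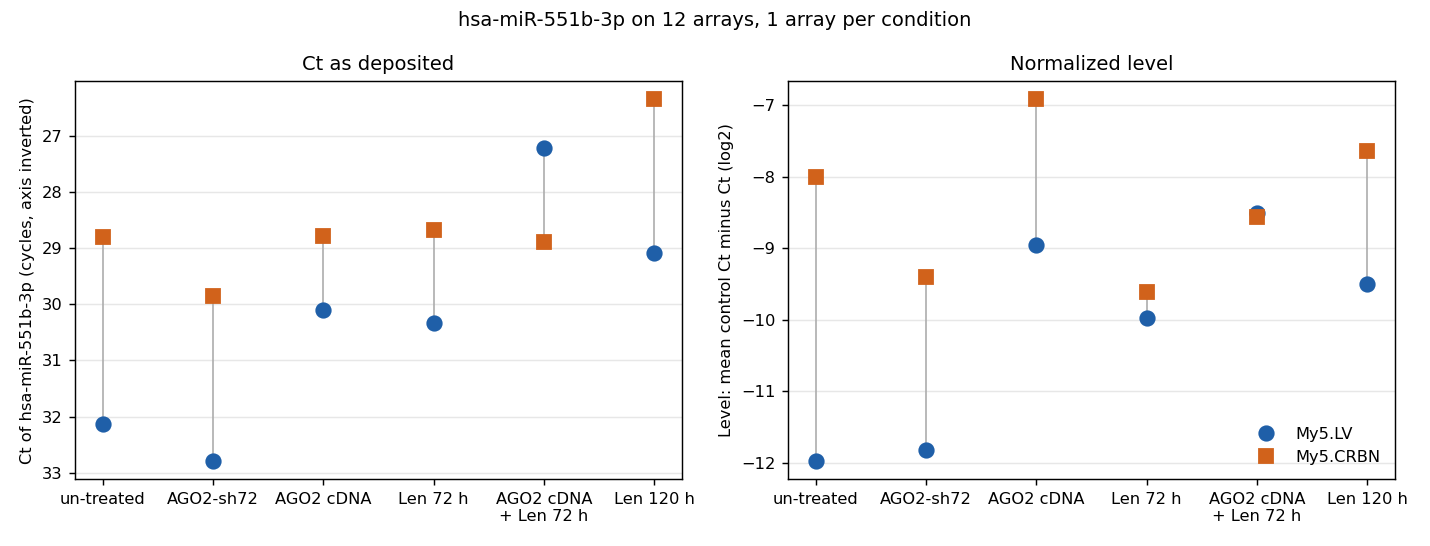
hsa-miR-551b-3p in the 6 conditions of each line, as the deposited Ct (left, cycles, axis inverted) and as the level, mean control Ct minus Ct (right, log2). Each point is 1 array, circles are My5.LV and squares My5.CRBN, and a grey line joins the arrays of a condition. My5.LV un-treated and with AGO2-sh72 lie near -12 on the right, and the other 10 arrays lie above -10.

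The whole span over the 12 arrays was 5.06 on the log2 scale, with an SD of 1.52. It was 3.47 over the 6 My5.LV arrays and 2.70 over the 6 My5.CRBN arrays. The median level was -9.73 in My5.LV and -8.28 in My5.CRBN, and the ranges of the lines overlapped. Among the 314 miRNAs under the cap on every array, this SD was the 14th largest, and the median SD was 0.72.

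Neighbours in the order of levels were read against the SD of the log2 differences of the 6 control wells between the same 2 arrays. The step from un-treated My5.LV to My5.LV.sh72 was 0.15, below that SD of 0.51. The step from My5.LV.sh72 to the next array, My5.LV+Len72, was 1.86 against an SD of 0.43, the widest step in the order. Going up from there, My5.CRBN+Len72, My5.LV+Len120 and My5.CRBN.sh72 did not differ beyond the control SD from the array next to them within this trio, with steps of 0.12 and 0.09. The same held for My5.CRBN.AGO2+Len72 and My5.LV.AGO2+Len72, which were 0.06 apart, and for My5.LV.AGO2+Len72 and un-treated My5.CRBN, 0.50 apart. The remaining steps, from 0.35 to 0.73, were larger than the SD of the control wells, although the step of 0.35 between My5.LV+Len72 and My5.CRBN+Len72 exceeded an SD of 0.32 by little. The highest array, My5.CRBN.AGO2, was 0.73 above My5.CRBN+Len120, against an SD of 0.58.

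Since un-treated My5.LV is the reference of several comparisons, its well was set beside the rest of that array. Over the 314 miRNAs, un-treated My5.LV was the lowest of the 12 arrays for 5 (1.59%), and My5.LV.sh72 was the lowest for 130 (41.4%). A low value in the un-treated My5.LV array was thus uncommon, while a low value in My5.LV.sh72 was not. The 5 miRNAs were miR-205-3p, miR-125a-5p, miR-200a-3p, hsa-miR-551b-3p and miR-27a-5p, with gaps to the next array from 0.03 (miR-27a-5p) to 0.60 (miR-205-3p). They were named because their un-treated My5.LV array was lowest, after the values were seen. The un-treated My5.LV array was the lowest of its line by 3 fold or more for 0 miRNAs, and the gap of hsa-miR-551b-3p there was 0.15. For 7 of the 314 miRNAs the 2 lowest arrays were un-treated My5.LV and My5.LV.sh72, and for 8 the step from the 2nd to the 3rd lowest array was at least 1.86, whichever arrays they were. The pair of arrays and the step of 1.86 were both taken from hsa-miR-551b-3p, so it met them by construction. None of the other miRNAs met both, which is a description of the chosen miRNA and not a test.

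Without the un-treated My5.LV array, hsa-miR-551b-3p had an SD of 1.32 over 11 arrays and the 27th largest SD of the 314. Without My5.LV.sh72 as well, the SD was 0.97 over 10 arrays and the 58th largest. These 2 arrays are the 2 lowest of hsa-miR-551b-3p itself, left out after its values were seen. A fall in its SD and rank was therefore built into this choice. The median SD over all miRNAs was 0.65 over the 10 arrays.

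The wells that adjoin the assay's well on the plate (row N, column 14) were read on the same arrays. In column 13, miR-549a had a Ct of 31.99 in un-treated My5.LV and 31.89 in un-treated My5.CRBN cells, where hsa-miR-551b-3p had 32.13 and 28.80, and un-treated My5.LV was the 2nd lowest array by level for miR-549a. In column 15, miR-567 had its highest level of the 12 arrays in un-treated My5.LV. Above and below, miR-499a-3p (row M) and miR-720 (row O) had un-treated My5.LV in 7th and 5th place from the lowest. The log2 differences of these 4 assays between un-treated My5.CRBN and My5.LV were from -1.13 to 1.18, all below 3 fold.

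No miRNA was measured in duplicate. The only repeats on an array are control assays in 2 wells each. Over the 12 arrays the reverse transcription control had a root mean square difference between its wells of 0.19 cycles and the positive PCR control one of 0.38, and both come up early. For cel-miR-39, a worm miRNA whose wells had a Ct of 31.5 or later, it was 1.43, with a largest difference of 2.38. In un-treated My5.LV the cel-miR-39 wells read 33.2 and 35, the cap. The Ct of hsa-miR-551b-3p on that array, 32.1, lies in the range of Ct of these late wells. A difference that involves a well at the cap is a lower bound.

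The lines were compared within each of the 6 conditions. The control wells are given as the SD of their 6 log2 differences, and the share of the 372 miRNAs that differed at least 3 fold (1.58 on the log2 scale) in either direction is given for each pair of arrays. Without treatment the level of hsa-miR-551b-3p in My5.CRBN cells exceeded that in My5.LV cells by 3.97 (15.7 fold), against a control SD of 0.22. In this pair 4.03% of miRNAs differed at least 3 fold. The miRNA was chosen on this contrast, so the difference and its first place among 372 are a description. Next in the order of increases were miR-125a-5p at 2.65, miR-143-3p at 2.60 and miR-206 at 1.95. Of the 92 miRNAs whose mean Ct in the pair was within 1.5 cycles of its own, none differed by as much, and their SD was 0.75.

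The direction was the same in most of the other pairs. With AGO2-sh72 the level was 2.42 higher in My5.CRBN.sh72 than in My5.LV.sh72 (5.35 fold), against a control SD of 0.21. It was the 3rd largest difference of the 372 by size, in a pair of arrays where 4.03% of miRNAs were past 3 fold. With AGO2 cDNA the difference was 2.04 (4.11 fold, control SD 0.52), and 10.8% of miRNAs were past 3 fold. After 120 h of lenalidomide it was 1.85 (3.60 fold, control SD 0.43), and 12.9% were past 3 fold. In these last 2 pairs the difference was the 20th and the 35th by size, so that many other miRNAs moved by more.

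In the other 2 pairs, both with 72 h of lenalidomide, the lines were close. The level was 0.35 higher in My5.CRBN+Len72 than in My5.LV+Len72 (1.28 fold, control SD 0.32), where 9.95% of miRNAs were past 3 fold. With AGO2 cDNA and lenalidomide together the difference was -0.06 (control SD 0.34), where 8.87% were past 3 fold. The sign of either value turned with the normalizer, to -0.041 with the mean of the miRNAs in the former pair and to 0.17 with RNU6-2 alone in the latter.

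hsa-miR-551b-3p was thus higher in My5.CRBN cells in 5 of 6 pairs, and at least 3 fold higher in 4. Over the 5 treated pairs, which do not use the un-treated arrays, its median difference was 1.85, the 5th highest of the 314 miRNAs under the cap on every array, whose own median was 0.10. In all, 6 of the 314 favoured My5.CRBN by 3 fold or more in 3 or more of the treated pairs. The others were miR-143-3p (all 5 pairs, median 2.85), miR-223-3p (4 pairs, 2.05), miR-205-5p (3 pairs, 3.67), miR-455-5p (3 pairs, 3.09) and miR-600 (3 pairs, 1.75), named for this count after their values were seen. For comparison, miR-125a-5p and miR-206, which came next to hsa-miR-551b-3p in the un-treated pair, had medians of 0.55 and 0.92 over the treated pairs.

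Of these miRNAs, miR-143-3p is known from smooth muscle and fibroblasts, miR-223-3p from myeloid cells, miR-205-5p from epithelium and miR-206 from skeletal muscle. The marker lists that hold them were therefore summed on each array (log2 of the sum of the linear levels). For the 2 mesenchymal miRNAs, miR-143-3p and miR-145-5p, the sum was between -8.10 and -6.90 in My5.LV and between -7.03 and -4.26 in My5.CRBN, and 1 of 2 was at least 3 fold higher in un-treated My5.CRBN cells. For miR-223-3p and miR-451a the sums were -10.44 to -7.42 and -9.16 to -5.65, again with 1 of 2 at least 3 fold higher. The muscle list (miR-1, miR-206, miR-133a-3p and miR-133b) went from -2.87 to 0.18 and from -1.22 to 0.23, with 1 of 4. The epithelial list (miR-200c-3p, miR-141-3p and miR-205-5p) went from -5.39 to -3.72 and from -5.79 to -4.22, with 0 of 3. The haematopoietic list went from 2.62 to 4.11 and from 3.03 to 6.30, also with 0 of 4. None of these markers was at the cap on all arrays, and the ranges of the lines overlapped for all 5 lists. Their part in the level of hsa-miR-551b-3p was not tested.

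**Figure D2:**
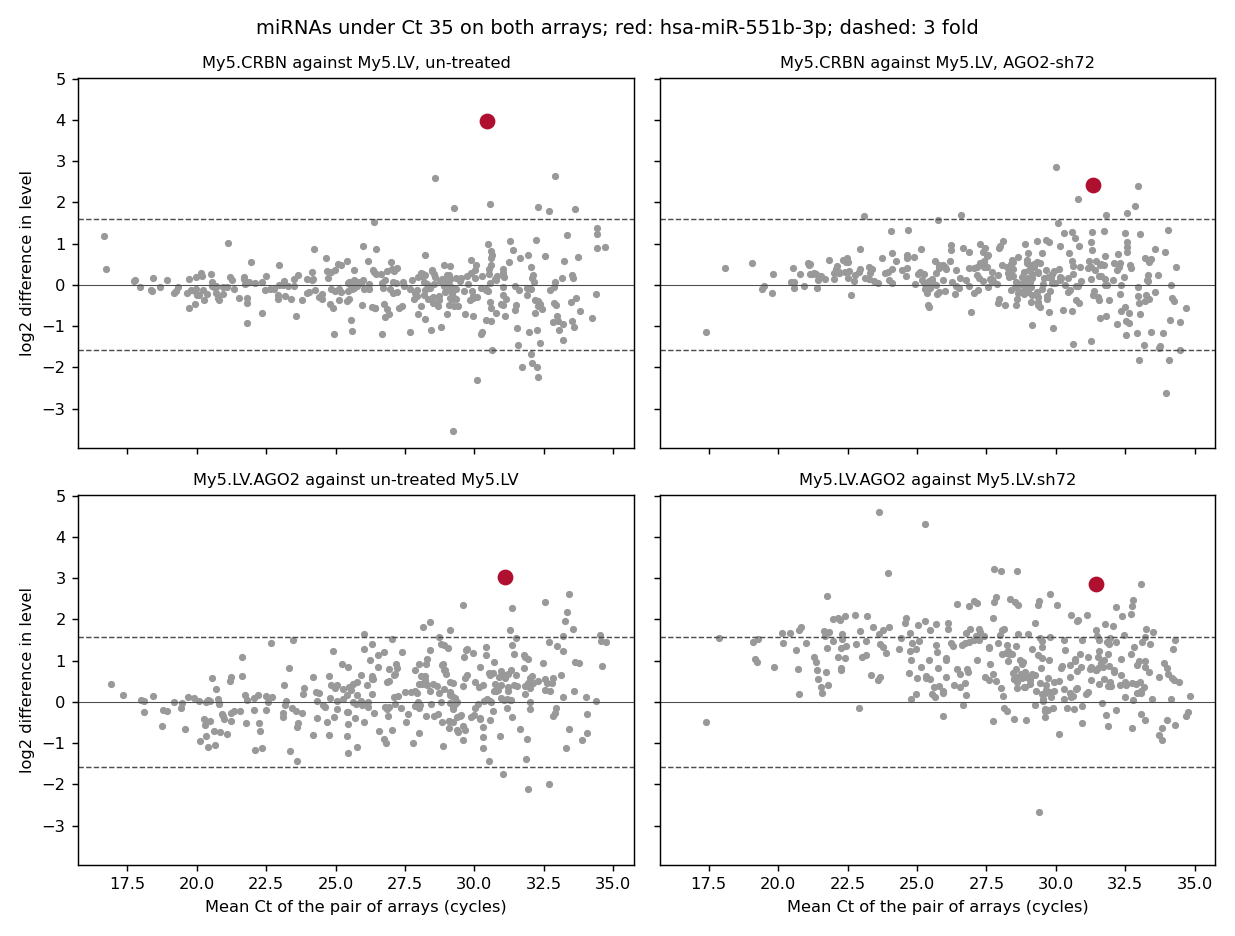
Log2 difference in level against the mean Ct (cycles) of the 2 arrays compared, for each miRNA under Ct 35 on both, in 4 comparisons. The large red point is hsa-miR-551b-3p, grey points are the other miRNAs and dashed lines mark 3 fold. It lies above the other miRNAs of like Ct in the un-treated lines (3.97) and in My5.LV.AGO2 against un-treated My5.LV (3.02), and near the top with AGO2-sh72 (2.42) and in My5.LV.AGO2 against My5.LV.sh72 (2.87), where the whole set is shifted up.

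The arrays with altered AGO2 were read first against the un-treated array of each line. These comparisons share that array, and hsa-miR-551b-3p was chosen with those of My5.LV known. AGO2-sh72 left the level of hsa-miR-551b-3p in My5.LV cells within the spread, with a difference of 0.15 (1.11 fold, control SD 0.51), while 25.5% of miRNAs were past 3 fold and the median over all 372 was -0.79. Its Ct was later in My5.LV.sh72 (32.8 against 32.1), and the difference was 1.01 with the mean of the miRNAs as normalizer and -0.83 with RNU6-2 alone. In My5.CRBN cells AGO2-sh72 went with a level lower by 1.40 (2.64 fold, control SD 0.30), where 14.5% were past 3 fold and the median was -0.52. That is less than 3 fold, and it ranked 81st of the 372 by size. It was past 3 fold with RNU6-2 alone (-1.85) and with the reverse transcription control wells (-1.78).

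AGO2 cDNA went with a higher level in both lines. The difference was 3.02 in My5.LV (8.11 fold, control SD 0.41), where 6.72% of miRNAs were past 3 fold and none of the 86 of like Ct differed by as much. In My5.CRBN it was 1.09 (2.13 fold, control SD 0.56), where 8.33% were past 3 fold. In the latter line the Ct of hsa-miR-551b-3p was the same within 0.02 cycles (28.8 on both arrays). The mean Ct of the control wells was 20.8 in un-treated My5.CRBN and 21.9 in My5.CRBN.AGO2. The median Ct of all miRNAs was also later on the latter array, at 30.3 against 28.9. The difference was 1.33 with the mean of the miRNAs as normalizer, 1.02 with the reverse transcription control wells and 0.86 with RNU6-2 alone.

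A comparison of AGO2 cDNA with AGO2-sh72 leaves out the un-treated arrays. In this comparison, added after the data were seen, hsa-miR-551b-3p was 2.87 higher in My5.LV.AGO2 than in My5.LV.sh72 (7.31 fold, control SD 0.23), where 22.6% of miRNAs were past 3 fold. It was 2.49 higher in My5.CRBN.AGO2 than in My5.CRBN.sh72 (5.62 fold, control SD 0.39), where 13.7% were past 3 fold. Both differences are larger than the SD of miRNAs of like Ct, 0.75 and 1.21, and they ranked 8th and 12th of 372 by size. The median difference over all 372 miRNAs was also toward the AGO2 cDNA array, at 0.86 in My5.LV and 0.41 in My5.CRBN. For the miRNAs of like Ct the median was 0.82 in My5.LV and -0.23 in My5.CRBN. Here the value for hsa-miR-551b-3p exceeded 3 fold in both lines. In My5.CRBN its Ct was 1.07 cycles earlier with AGO2 cDNA than with AGO2-sh72. The mean Ct of the control wells there was 21.9 with AGO2 cDNA and 20.4 with AGO2-sh72.

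Lenalidomide was compared in the same way, with the un-treated array of each line as reference. In My5.LV cells the level of hsa-miR-551b-3p was 2.01 higher after 72 h (4.03 fold, control SD 0.18), in a pair where 1.08% of miRNAs, 4 of 372, were past 3 fold. After 120 h it was 2.48 higher (5.59 fold, control SD 0.41), where 18.5% were past 3 fold and 12 of the 87 miRNAs of like Ct differed by at least as much. With AGO2 cDNA and 72 h of lenalidomide it was 3.47 higher (11.1 fold, control SD 0.67), where 7.53% were past 3 fold. All 3 differences, and that of AGO2 cDNA alone, take un-treated My5.LV as reference and so rest on its 1 well. With the median of the other 5 My5.LV arrays as reference, My5.LV+Len72 was at -0.47. That median was the level of My5.LV+Len120, so this value sets the lenalidomide arrays against each other.

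In My5.CRBN cells the level after 72 h of lenalidomide was 1.61 lower than the un-treated level of -8.01 (3.05 fold, control SD 0.22). With RNU6-2 alone the difference was -1.577, just under the 1.585 of 3 fold. In that pair 11.6% of miRNAs were past 3 fold, and the median of the miRNAs of like Ct was 0.71. The Ct of hsa-miR-551b-3p hardly moved (28.8 and 28.7), while the mean Ct of the control wells was 20.8 on the un-treated array and 19.1 on the treated one. After 120 h the level was 0.36 higher than un-treated (1.28 fold, control SD 0.22), where 18.5% were past 3 fold. With AGO2 cDNA and lenalidomide it was 0.56 lower (1.47 fold, control SD 0.37), where 5.11% were past 3 fold. The difference between the lines in these changes was not tested, since each line has 1 array per condition.

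Comparisons between treated arrays, again added after the data were seen, do not use the un-treated wells. From 72 h to 120 h of lenalidomide the level was 0.47 higher in My5.LV, below the control SD of 0.56, where 16.1% of miRNAs were past 3 fold. In My5.CRBN it was 1.97 higher at 120 h (3.92 fold, control SD 0.30), where 23.7% were past 3 fold. The later array was thus the higher one in both lines, with a step past 3 fold in My5.CRBN.

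With lenalidomide present at 72 h, AGO2 cDNA went with a level higher by 1.47 in My5.LV (2.76 fold, control SD 0.58), where 6.99% were past 3 fold, and by 1.68 with the 5 SNORD wells, past 3 fold. In My5.CRBN it was higher by 1.05 (2.07 fold, control SD 0.45), where 8.06% were past 3 fold. With AGO2 cDNA present, 72 h of lenalidomide went with a level 0.45 higher in My5.LV (1.37 fold, control SD 0.39, and -0.072 with RNU6-2 alone), where 11.8% were past 3 fold. In My5.CRBN it went with one 1.65 lower (3.14 fold, control SD 0.45), where 10.8% were past 3 fold, and the difference was -1.56 with the 5 SNORD wells, just under 3 fold. An AGO2 cDNA array was set against un-treated, AGO2-sh72 and lenalidomide alone in both lines. In these 6 comparisons it was higher by 1.05 to 3.02. Where AGO2-sh72 was the reference, AGO2 cDNA was not the only variable, since the reference cells were given the shRNA. The 6 are not separate results. The AGO2 cDNA array of each line without lenalidomide serves in 2 of them, and the choice of the miRNA used the value of 3.02. With RNU6-2 alone, the differences in the presence of lenalidomide were 0.41 in My5.LV and 0.34 in My5.CRBN, below the control SD of 0.58 and 0.45.

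The miRNAs whose pattern was most like that of hsa-miR-551b-3p were taken by Pearson's r of the level over the 12 arrays, among the other 313 miRNAs under the cap on every array. The points share the arrays and the normalizer, so the values are descriptive. The 5 highest were miR-497-5p (r 0.80, Spearman's rho 0.62), miR-126-3p (0.79, 0.64), miR-600 (0.78, 0.76), miR-126-5p (0.77, 0.62) and miR-210-3p (0.73, 0.65). The median r over the 313 was 0.12, and 7 had an r over 0.7. The 3 lowest were miR-432-5p (-0.71), miR-508-5p (-0.68) and miR-433-3p (-0.68). The sequences of the 5 show that none of them has the seed of hsa-miR-551b-3p, which is given first. The seeds are again in capitals (RefSeq, GRCh38.p14).
hsa-miR-551b-3p: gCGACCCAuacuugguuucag
hsa-miR-497-5p: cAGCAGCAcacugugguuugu
hsa-miR-126-3p: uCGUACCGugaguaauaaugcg
hsa-miR-600: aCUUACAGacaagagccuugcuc
hsa-miR-126-5p: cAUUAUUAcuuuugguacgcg
hsa-miR-210-3p: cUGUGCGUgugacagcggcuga

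miR-497-5p has the seed of the miR-15/16 family and lies at chr17:7017979-7017999 on the minus strand. miR-126-3p and miR-126-5p are the 2 arms of 1 hairpin, at chr9:136670653-136670674 and chr9:136670616-136670636 on the plus strand, best known from endothelial cells. miR-600 lies on the same chromosome at chr9:123111561-123111583, on the minus strand. miR-210-3p, known for its induction by low oxygen, lies at chr11:568112-568133 on the minus strand. None of the 5 is on chromosome 3 with MIR551B.

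The 5 moved less than hsa-miR-551b-3p. Between un-treated My5.CRBN and My5.LV cells they differed by 1.89 (miR-600), 1.52 (miR-497-5p), 0.57 (miR-126-3p), 0.56 (miR-126-5p) and 0.42 (miR-210-3p), against 3.97. Between AGO2 cDNA and AGO2-sh72 they were higher by 1.34 to 1.77 in My5.LV and by 1.31 to 1.57 in My5.CRBN, against 2.87 and 2.49 for hsa-miR-551b-3p. For all 5 the lowest of the 12 arrays was My5.LV.sh72, as it was for 41.4% of the 314 miRNAs. The 5 were picked by their r with hsa-miR-551b-3p, which was also low there. The level of miR-600 was -13.09 in My5.LV.sh72 and -12.76 in un-treated My5.LV. All 5 lay further apart on these 2 arrays than hsa-miR-551b-3p did.

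**Figure D3:**
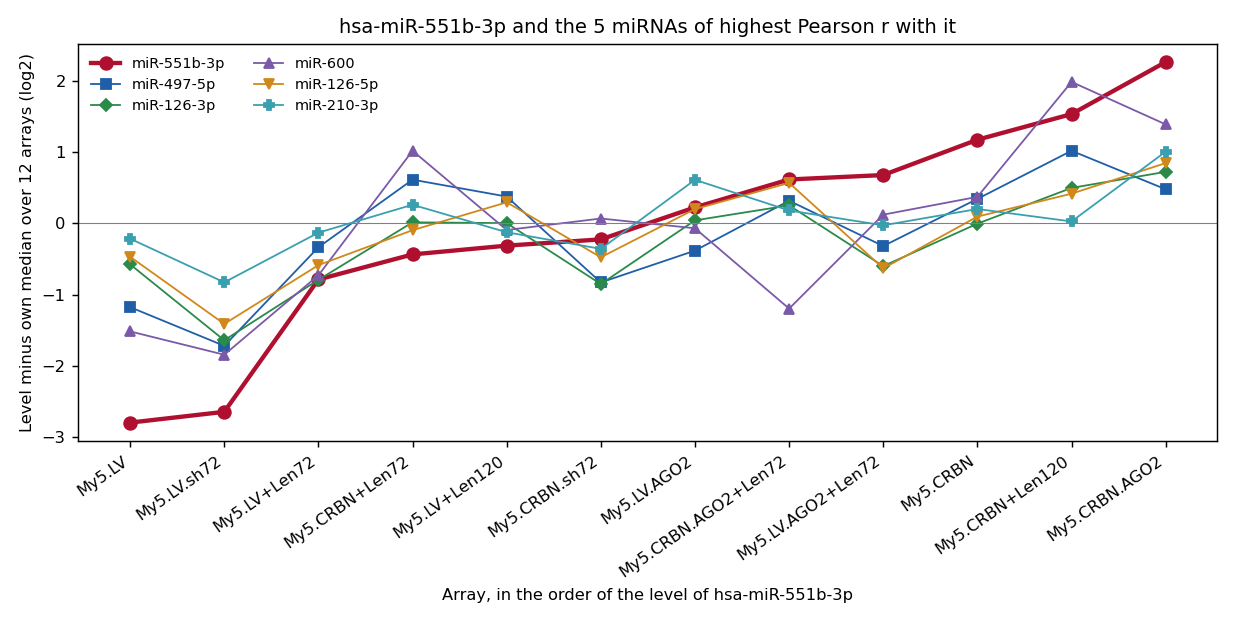
Level of hsa-miR-551b-3p (thick red line) and of the 5 miRNAs of highest Pearson r with it, each minus its own median over the 12 arrays (log2), with the arrays in the order of hsa-miR-551b-3p. Lines join the points of a miRNA as a guide. The 5 are lowest in My5.LV.sh72, and hsa-miR-551b-3p is about as low in un-treated My5.LV (-2.80 from its median) as in My5.LV.sh72 (-2.64).

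This list depended in part on the un-treated My5.LV array. Without it, the 5 highest of 313 were miR-126-3p (0.86), miR-192-5p (0.84), miR-345-5p (0.82), miR-126-5p (0.82) and miR-330-3p (0.80), so that 2 of the 5 were shared, and 23 miRNAs had an r over 0.7. miR-497-5p then had an r of 0.75 and miR-600 one of 0.74. Within the 6 My5.LV arrays miR-600 had an r of 0.97, and within the 6 My5.CRBN arrays 0.42. miR-126-3p kept an r of 0.63 and 0.78 within the lines. The level of hsa-miR-551b-3p had an r of 0.00013 with the mean Ct of the control wells and of -0.02 with the median level of all miRNAs over the 12 arrays. Its Ct had an r of 0.54 with the mean Ct of the control wells.

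The place of the lowest and highest arrays was compared under 6 ways of setting the level: the 6 control wells, the mean of the miRNAs detected on all arrays, RNU6-2 alone, the 5 SNORD wells, the reverse transcription control wells, and a Ct cap of 32. Un-treated My5.LV was the lowest array and My5.LV.sh72 the next under all but RNU6-2 alone, where they changed places. My5.CRBN.AGO2 was the highest under all 6. With the median of the other 5 My5.LV arrays as reference in place of the un-treated array, My5.LV+Len72 was at -0.47, My5.LV+Len120 at 0.47, My5.LV.AGO2 at 1.01 and My5.LV.AGO2+Len72 at 1.47, all under 3 fold, and My5.LV.sh72 was at -2.33. With the 6 control wells and My5.LV.sh72 as reference, the same 4 arrays were 1.86 to 3.32 higher, all past 3 fold. The level of My5.LV.sh72 was known to be low when it was taken as reference, and the next array lay 1.86 above it. Values past 3 fold against it therefore followed from the order of the levels. My5.LV.sh72 cells were also given AGO2-sh72, so these values are not changes from un-treated cells. Whether all 4 arrays were past 3 fold against My5.LV.sh72 depended on the setting. With the mean of the miRNAs, My5.LV+Len72 was at -0.896 from the median of the 12 arrays. My5.LV.sh72 was at -1.996, less than 3 fold below it. With the Ct cap of 32, which cuts the Ct of My5.LV.sh72, that array was at -1.847. My5.LV+Len72 (-0.787) and My5.LV+Len120 (-0.312) were then less than 3 fold above it. With RNU6-2 alone, the 5 SNORD wells or the reverse transcription control wells, all 4 stayed past 3 fold. For these 4 arrays the median of the other 5 My5.LV arrays was the level of My5.LV+Len72 or My5.LV+Len120. The values against it therefore set treated arrays against each other and cannot show a change from un-treated cells.

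**Figure D4:**
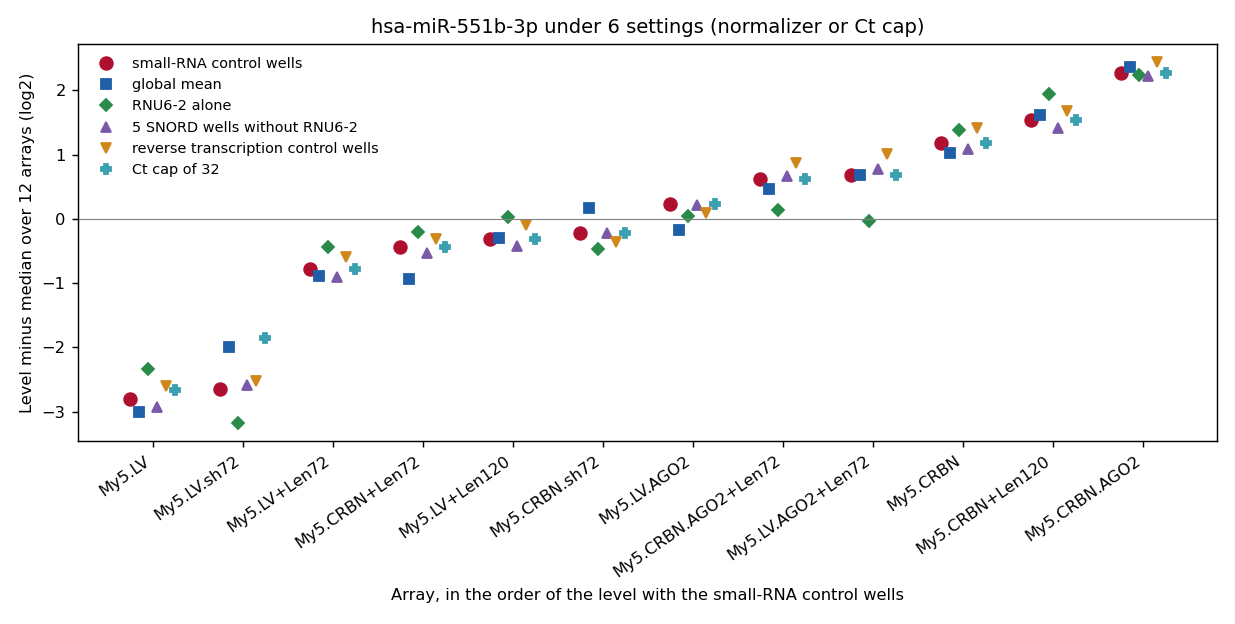
Level of hsa-miR-551b-3p minus its median over the 12 arrays (log2) under 6 settings of the normalizer or the Ct cap, with the arrays in the order of the level set with the small-RNA control wells. Each symbol is 1 setting. The 2 arrays at the left, un-treated My5.LV and My5.LV.sh72, lie below the other 10 under every setting.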

How the data were processed

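Levels of 372 miRNAs were measured by SYBR green PCR on miScript miRNA PCR Arrays with total RNA of OCI-My5 lines, on 12 arrays of 384 wells. As deposited, a value is the PCR cycle at which a well crossed the threshold (Ct), a unit of its own that the authors had not normalized. The instrument's threshold setting is not given in the sources used here. The authors' other table, with linear ratios of each array to un-treated My5.LV, was used for plate positions and assay names alone, and 7 assays are named differently in the 2 tables.

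A Ct above 35, or an undetermined well (1 to 5 per array), was set to 35. The level was the average over the 6 control wells for small RNAs minus the Ct of the assay, on a log2 scale computed here from the deposited values. Groups followed the labels, with 1 array each, so there are no replicates within a condition. No test was made over the 6 matched pairs of arrays either, since the miRNA was chosen on their values, and no p-value is given. The spread is the SD of the log2 differences of the 6 control wells. Differences at least 3 fold in either direction were counted over 372 miRNAs, and correlations were taken over the miRNAs under Ct 35 on all 12 arrays. Arrays have no sequencing depth.

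hsa-miR-551b-3p, the marker lists and the comparisons were chosen with earlier results of these data known, and 8 of the 24 comparisons were added after the data were seen. Named besides it were miRNAs of the same seed, the 5 most and 3 least similar in pattern, the 3 next to it in the un-treated pair, and those in the 4 adjoining wells. The levels were also set with 4 other normalizers, with a cap of 32, and with the median of the other arrays of a line as reference. Sequences were matched by name to RefSeq (GRCh38.p14) for 332 of 372 assays. The calculation was tested on simulated data. The scripts ran in Python 3.11.15 with Matplotlib 3.10.9, SciPy 1.17.1, NumPy 2.4.6 and pandas 2.3.3.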

Additional observations from a re-analysis of the deposited data

Results flagged for a closer look

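In 3 comparisons the level of hsa-miR-551b-3p moved up in one line and down in the other, each by more than the SD of the control wells. The difference between the lines was not tested, since each condition has 1 array per line. After 72 h of lenalidomide the level was 2.01 higher than un-treated in My5.LV and 1.61 lower in My5.CRBN, so that the change in My5.CRBN minus that in My5.LV was -3.62. With AGO2 cDNA and lenalidomide against un-treated cells the changes were 3.47 and -0.56, a difference of -4.03. With the same arrays set against AGO2 cDNA alone the changes were 0.45 and -1.65, a difference of -2.10, and the change in My5.LV was -0.072 with RNU6-2 as the sole normalizer. The first 2 comparisons use both un-treated arrays, whose difference of 3.97 chose the miRNA and is part of both values, so they are not independent of that choice. With the median of the other My5.LV arrays as reference, My5.LV+Len72 was at -0.47. That median was the level of My5.LV+Len120, so this value is not a change from un-treated cells. The last comparison does not use the un-treated arrays.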

How the results depend on the processing

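The 24 differences of hsa-miR-551b-3p were recomputed under 5 other settings, and the 10 against an un-treated array also with the median of the other 5 arrays of the line as reference. A value is given where it moved by at least the SD of the control wells. The cause of each shift was not tested. With the 5 SNORD wells none of the 24 moved so far. The side of 3 fold changed for 2 of 24 differences with the 5 SNORD wells, 2 with RNU6-2 alone, 3 with the reverse transcription control wells, 0 with the global mean, 0 with a Ct cap of 32, and 6 of 10 with the median of the line as reference. My5.CRBN.AGO2+Len72 against My5.CRBN.AGO2 dropped below it (-1.56 with the 5 SNORD wells, -1.57 with the reverse transcription control wells), as did My5.CRBN+Len72 against un-treated (-1.577 with RNU6-2). My5.LV.AGO2+Len72 against My5.LV+Len72 passed it (1.68 and 1.61, with the SNORD and reverse transcription control wells).

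With the global mean of the miRNAs as normalizer, the difference between the lines was 2.17 with AGO2-sh72 and -0.041 after 72 h of lenalidomide. Against un-treated cells it was 1.01 in My5.LV.sh72, -0.85 in My5.CRBN.sh72, -1.96 in My5.CRBN+Len72 and 0.59 in My5.CRBN+Len120. AGO2 cDNA against AGO2-sh72 in My5.LV was 1.82, lenalidomide with against without in My5.LV.AGO2 cells 0.85, and 120 h against 72 h in My5.CRBN 2.56. With RNU6-2 alone, the lines differed by 3.72 un-treated and 2.70 with AGO2-sh72. Against un-treated cells it was -0.83 in My5.LV.sh72, 2.38 in My5.LV.AGO2, 2.31 in My5.LV.AGO2+Len72, -1.85 in My5.CRBN.sh72 and -1.24 in My5.CRBN.AGO2+Len72. AGO2 cDNA against AGO2-sh72 in My5.LV was 3.21. AGO2 cDNA on top of lenalidomide gave 0.41 in My5.LV and 0.34 in My5.CRBN, and lenalidomide on top of AGO2 cDNA -0.072 and -2.10. With the reverse transcription control wells the corresponding values were 2.17 for the lines with AGO2-sh72, -1.78 for My5.CRBN.sh72, 2.62 for AGO2 cDNA against AGO2-sh72 in My5.LV and 0.92 for lenalidomide on top of AGO2 cDNA in My5.LV. With a Ct cap of 32, which cuts the 2 lowest arrays, they were 1.62 for the lines with AGO2-sh72, 0.82 for My5.LV.sh72 and 2.07 for AGO2 cDNA against AGO2-sh72 in My5.LV.

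With the median of the other 5 arrays of the line as reference, 1 difference past 3 fold changed sign, that of My5.LV+Len72 (-0.47 in place of 2.01). The others that moved were My5.LV+Len120 at 0.47, My5.LV.AGO2 at 1.01, My5.LV.AGO2+Len72 at 1.47, My5.LV.sh72 at -2.33, My5.CRBN+Len120 at 0.92 and My5.CRBN.AGO2 at 1.65. For each treated My5.LV array this median was the level of My5.LV+Len72 or My5.LV+Len120, so the values set treated arrays against each other. Of the 5 miRNAs most like it in pattern, 2 stayed without un-treated My5.LV and 5 with the global mean.

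No paired analysis was possible because the labels give no replicate numbers to use as a block. The lines were matched by condition, and no test was made over the 6 pairs, on which the miRNA was chosen. With 1 well per miRNA and condition, no value here has an error from replicates, and the SD of the control wells comes from wells of far lower Ct than hsa-miR-551b-3p. The batch in which each array was run is not given in the sources used here, so batch and condition cannot be told apart.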
